A study of Mus musculus with 8 samples.

Results

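The genes described are 10 transcripts typical of tissue macrophages: C1qa, C1qb and C1qc, the 3 chains of complement C1q; Mrc1, Cd163 and Mertk, receptors for uptake; Apoe, a lipid carrier; Maf, a transcription factor; and Csf1r and Adgre1, surface proteins of the macrophage lineage. They were chosen by symbol with earlier results of these data known, and were matched to the Ensembl identifiers of the deposited tables. Comparisons of the set with all genes are therefore descriptions. The set makes up 10 of the 49315 genes listed, and all 10 passed the filter on low counts that left 14909 genes for testing. RNA was sequenced from peritoneal neutrophils of C57BL/6 mice aged 2 months, drawn into the peritoneal cavity with casein, a milk protein. The mice were wild type or H2R deficient, that is, deficient in the histamine H2 receptor, and from each genotype a high-density and a low-density neutrophil population was taken. This gave 4 groups of 2 libraries: wild-type high density (libraries 2 and 4), wild-type low density (2 and 4), H2R-deficient high density (1 and 2) and H2R-deficient low density (1 and 2). All 4 groups shared the strain, the age and the casein treatment. The sources used here give neither the allele behind the deficiency nor any pooling, and do not say that replicate libraries are separate mice. The p-values therefore describe how much these libraries vary, and that variation could be technical.

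C1q is the recognition part of the classical complement pathway. It is built from A, B and C chains in equal number, and macrophages, rather than the liver, are its main source. The mannose receptor (Mrc1) and the haemoglobin-haptoglobin receptor (Cd163) take up glycoproteins and haemoglobin, Mertk binds apoptotic cells through bridging proteins, and apolipoprotein E carries cholesterol out of lipid-loaded macrophages. Survival of macrophages depends on the receptor for CSF1, and clearing aged neutrophils by engulfment is one of the known tasks of macrophages in an inflamed peritoneum.

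The C1q genes and Mrc1 had the most similar profiles over the libraries, so the promoter sequences of these genes are shown first. The C1q genes lie together on the minus strand of chromosome 4, with 18.7 kb from the end of C1qb to the start of C1qa (chr4:136880129-136898803, GRCm38). RefSeq promoter windows of GRCm38.p6, which run from 250 bases before to 50 bases after a start site, were searched for 6 of the 10 genes. Csf1r was left out of this search, and no window was matched by symbol for C1qa, Adgre1 and Maf. Windows are given 5′ to 3′ in the direction of the gene for C1qb (chr4:136886151-136886450, minus strand), C1qc (chr4:136892865-136893164, minus strand) and Mrc1 (chr2:14229164-14229463, plus strand). Capitals mark matches on either strand to TGCTGA, the half-site of MAF-family factors, TGANTCA, the AP-1 site, AGGAAG, the core bound by PU.1, which reads CTTCCT on the opposite strand, and TATAAA, the TATA box.
C1qb: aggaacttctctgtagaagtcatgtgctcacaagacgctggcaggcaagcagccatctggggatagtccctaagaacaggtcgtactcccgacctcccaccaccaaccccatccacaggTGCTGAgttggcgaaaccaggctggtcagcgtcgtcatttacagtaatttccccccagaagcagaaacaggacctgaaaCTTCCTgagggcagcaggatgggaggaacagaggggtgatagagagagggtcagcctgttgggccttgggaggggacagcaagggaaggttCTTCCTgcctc
C1qc: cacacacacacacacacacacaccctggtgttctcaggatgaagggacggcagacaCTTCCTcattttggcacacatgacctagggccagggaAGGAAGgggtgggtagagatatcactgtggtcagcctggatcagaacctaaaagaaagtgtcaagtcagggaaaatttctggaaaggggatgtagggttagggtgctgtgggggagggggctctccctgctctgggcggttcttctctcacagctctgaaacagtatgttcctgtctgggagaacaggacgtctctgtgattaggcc
Mrc1: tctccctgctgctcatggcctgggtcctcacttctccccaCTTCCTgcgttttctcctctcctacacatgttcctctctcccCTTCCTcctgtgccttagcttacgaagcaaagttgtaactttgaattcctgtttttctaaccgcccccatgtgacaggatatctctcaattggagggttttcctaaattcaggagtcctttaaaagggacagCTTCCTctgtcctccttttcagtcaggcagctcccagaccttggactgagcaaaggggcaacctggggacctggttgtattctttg

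The C1qb window held 1 match to the MAF half-site, at -131 from the start site, and 2 matches to the PU.1 core, at -52 and at 39. The C1qc window held PU.1 cores at -194 and -157, and the Mrc1 window held 3, at -210, -168 and -36. In the Cd163 and Mertk windows none of the 4 motifs was found, and of 3 Apoe windows 1 held a PU.1 core and a TATA box. Over all 32851 windows of this length, 35.4% held the PU.1 core, 19.5% the MAF half-site, 13.6% the TATA box and 7.81% the AP-1 site. TGCTGA and TGANTCA can overlap through their shared TGA, but no matches overlapped in the windows printed, and a match describes the sequence only.

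The libraries held 19862716 to 24199215 counts assigned to genes, and neutrophil transcripts were abundant in all of them. S100a9 lay between 7297 and 32047 CPM (counts relative to library sizes scaled by TMM, the unit of all levels below unless stated). All 13 genes of a neutrophil list were counted in every library. From high to low density in wild type, Camp (1.04), Ltf (1.14) and Ngp (0.80) of this list had log2 fold changes above 0, and the others below. The list is therefore not read as a measure of mature cells alone. The summed level of those 13 markers was 65696 to 76742 CPM in the high-density libraries, 32832 and 46868 CPM in wild-type low-density and 19532 and 28539 CPM in H2R-deficient low-density libraries. Scaling matters for density comparisons. The median log2 fold change over all genes was 0.10 in each genotype after TMM scaling, and 0.67 (wild type) and 1.0 (H2R deficient) when library totals alone were used. Every library held transcripts of the targeted gene, Hrh2, and the H2R-deficient high-density libraries held 35.0 and 17.5 CPM of Hrh2 against 118 and 41.3 in wild type, a log2 fold change of -1.60 ± 0.55 (SE) that did not pass (edgeR adjusted p = 0.192).

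Most of the genes were lowest in the H2R-deficient high-density libraries. C1qa, C1qb, C1qc, Mrc1, Cd163, Mertk, Apoe and Maf each had lower levels in both of those libraries than in any of the 6 others, a count of 8 of 10 that was chosen after the values were seen and that 16.3% of all tested genes met. Over library totals it was also 8 of 10, against 23.2% of genes. In H2R-deficient cells, 5 of the 10 genes were called higher at low density, where 30.0% of all tested genes were. In wild type 0 of the 10 passed in either direction, where 12.7% of all tested genes did. Calls over all genes were also more frequent in H2R-deficient (8044 genes) than in wild-type cells (1888), and the test of the difference between these effects passed for none of the set. Adgre1 and Csf1r, the most abundant of the set, had another pattern, with higher levels in high-density than in low-density libraries of both genotypes on the TMM scale; over library totals alone the densities overlapped for both genes in both genotypes. In RNA of mixed cells, fewer cells of a type and less RNA per cell cannot be told apart. The H2R-deficient high-density libraries enter both the density comparison in that genotype and the genotype comparison at high density, so the results of these comparisons are not independent of each other.

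**Figure D1:**
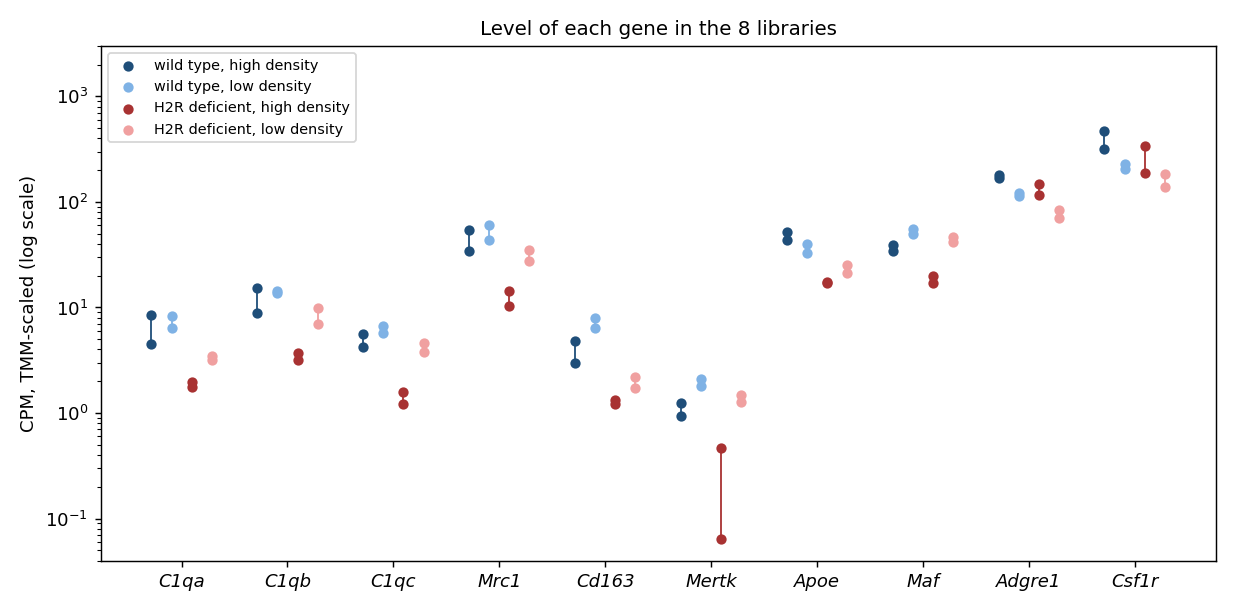
Levels of the 10 genes in CPM over TMM-scaled library sizes (log axis), 1 point per library and 1 colour per group of 2, with a line joining the libraries of a group. For 8 genes both H2R-deficient high-density points (dark red) lie below all 6 other points, as for Mrc1 at 10.2 and 14.4 CPM; Adgre1 and Csf1r do not show this.

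C1q was present in all libraries at modest levels. C1qb (ENSMUSG00000036905, chr4:136880129-136886187, minus strand) stood at 8.96 and 15.2 CPM in wild-type high-density libraries 2 and 4 and at 13.7 and 14.4 CPM in wild-type low-density libraries. In H2R-deficient cells C1qb was 3.15 and 3.70 CPM at high density, from 54 and 58 counts, and 7.01 and 9.86 CPM at low density. The H2R-deficient high-density libraries were thus below all others, and the wild-type densities overlapped. From high to low density C1qb rose 2.46-fold in H2R-deficient cells (log2 fold change 1.30 ± 0.30 SE, edgeR adjusted p = 0.00584). The wild-type difference was 0.22 ± 0.28 (edgeR adjusted p = 0.607). Against wild type at high density, the fitted C1qb level was 3.52-fold lower (-1.82 ± 0.30), which missed the threshold (edgeR adjusted p = 0.055).

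C1qc (ENSMUSG00000036896, chr4:136889804-136893065, minus strand) was the least abundant chain, at 4.24 and 5.55 CPM in wild-type high-density, 6.69 and 5.72 in wild-type low-density, 1.23 and 1.60 in H2R-deficient high-density and 3.82 and 4.63 CPM in H2R-deficient low-density libraries. The wild-type groups of C1qc lay close to each other without overlap, and the H2R-deficient high-density group lay far below. C1qc rose 2.99-fold with low density in H2R-deficient cells (1.58 ± 0.30, edgeR adjusted p = 0.00218) and differed by 0.34 ± 0.27 in wild type (edgeR adjusted p = 0.399). C1qa (ENSMUSG00000036887, chr4:136895917-136898803, minus strand) stood at 4.48 and 8.50, 8.23 and 6.34, 1.75 and 1.98, and 3.21 and 3.50 CPM in the same order of groups. For C1qa the H2R-deficient groups were both below all wild-type libraries on the TMM scale. Over library totals both H2R-deficient low-density libraries lay above wild-type high-density library 2 in C1qa. The C1qa density difference of 0.85 ± 0.35 in H2R-deficient cells did not pass (edgeR adjusted p = 0.0635). At high density the genotype differences were -1.80 ± 0.35 for C1qa and -1.79 ± 0.30 for C1qc (edgeR adjusted p = 0.0765 and 0.055).

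Per length of exon, in CPM per kilobase, the C1q chains kept the order C1qb, C1qa, C1qc in all 8 libraries. The C1qb level was 1.59 to 2.69 times that of C1qa (median 1.85), and the C1qc level was 0.352 to 0.713 times that of C1qa (median 0.462). The largest of both ratios came from H2R-deficient low-density library 2. The summed counts of the 3 chains were 300 and 495 in wild-type high-density, 706 and 675 in wild-type low-density, 105 and 114 in H2R-deficient high-density and 507 and 509 in H2R-deficient low-density libraries. Mrc1 counts followed this sum closely, at 1.66 to 2.10 times its value in every library.

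**Figure D2:**
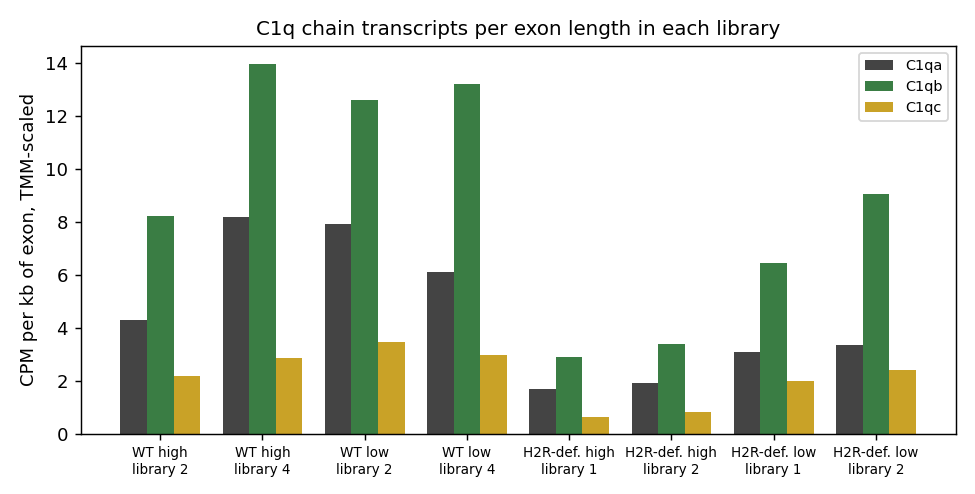
Level of each C1q chain per kilobase of exon in the 8 libraries (bars, CPM per kb over TMM-scaled library sizes). C1qb is the highest and C1qc the lowest chain in each library, and all 3 are lowest in the H2R-deficient high-density libraries.

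Among the uptake receptors, Mrc1 (ENSMUSG00000026712, chr2:14229392-14332057, plus strand) had 34.0 and 53.9 CPM in wild-type high-density and 60.0 and 43.8 CPM in wild-type low-density libraries. The H2R-deficient libraries had 10.2 and 14.4 CPM of Mrc1 at high and 27.7 and 35.0 CPM at low density. The wild-type densities overlapped, and the H2R-deficient densities did not. Mrc1 rose 2.55-fold with low density in H2R-deficient cells (1.35 ± 0.29, edgeR adjusted p = 0.00412), against 0.24 ± 0.28 in wild type (edgeR adjusted p = 0.566). The genotype difference of Mrc1 at high density, -1.84 ± 0.29, lay at the threshold without passing it (edgeR adjusted p = 0.0509).

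Cd163 (ENSMUSG00000008845, chr6:124304656-124330527, plus strand) was scarcer, with 51 and 81 counts in wild-type high-density and 196 and 164 in wild-type low-density libraries, or 3.01 and 4.78 and then 7.94 and 6.42 CPM. H2R-deficient libraries held 21 and 21 counts of Cd163 at high and 62 and 62 at low density, or 1.23 and 1.34 and then 1.72 and 2.19 CPM. Cd163 differed from Mrc1 in that both H2R-deficient groups lay below all wild-type libraries on the TMM scale. Over library totals the H2R-deficient low-density libraries (2.56 and 2.94 CPM of Cd163) lay above wild-type high-density library 2 (2.33 CPM). The genotype difference of Cd163 was -1.60 ± 0.34 at high density (edgeR adjusted p = 0.0937) and -1.88 ± 0.31 at low density (edgeR adjusted p = 0.104), and neither passed. Its density differences were 0.88 ± 0.31 (wild type) and 0.60 ± 0.34 (H2R deficient) (edgeR adjusted p = 0.0815 and 0.156).

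Mertk (ENSMUSG00000014361, chr2:128698956-128802894, plus strand) was close to the limit of detection: wild-type high-density libraries held 16 and 21 counts, wild-type low-density 52 and 46, H2R-deficient high-density 8 and 1, and H2R-deficient low-density 54 and 36. These counts are 0.943 and 1.24, 2.11 and 1.80, 0.467 and 0.0638, and 1.50 and 1.27 CPM of Mertk. The 1 count of H2R-deficient high-density library 2 is under the floor of 3 counts used here, so the size of any difference from that group is poorly fixed. Mertk rose with low density in H2R-deficient cells (2.33 ± 0.64, edgeR adjusted p = 0.0132), but the value was 1.56 without that library (edgeR adjusted p = 0.0503), 4.34 without high-density library 1 (edgeR adjusted p = 0.00638) and 2.21 without low-density library 1 (edgeR adjusted p = 0.053). In wild type the Mertk difference was 0.84 ± 0.54 (edgeR adjusted p = 0.305).

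Apoe (ENSMUSG00000002985, chr7:19696109-19699188, minus strand) was the gene of the set that passed the test between genotypes. Wild-type libraries held 52.1 and 43.5 CPM of Apoe at high and 40.1 and 32.9 CPM at low density. H2R-deficient libraries held 16.9 and 17.4 CPM at high and 25.4 and 21.4 CPM at low density. On the TMM scale all 4 wild-type libraries were above all 4 H2R-deficient libraries. Over library totals H2R-deficient low-density library 1 (37.9 CPM) lay above wild-type library 4 at high (35.1 CPM) and at low density (36.6 CPM). At high density Apoe averaged 47.8 ± 6.07 CPM in wild type and 17.2 ± 0.385 CPM in H2R-deficient libraries (mean ± SD, n = 2 each) and was 2.79-fold lower in the latter (-1.48 ± 0.19, edgeR adjusted p = 0.0374). This call held in 6 of 15 alternative analyses, with adjusted p from 1.95e-08 to 0.238: it was lost with limma-voom (limma adjusted p = 0.0542), with the high-density groups fitted alone, and on leaving out any library other than wild-type low-density library 2 (edgeR adjusted p = 0.0502 to 0.238). The fitted Apoe difference stayed between -1.61 and -1.34 throughout. Between densities Apoe differed by -0.39 ± 0.19 (wild type) and 0.45 ± 0.19 (H2R deficient), and neither passed (edgeR adjusted p = 0.18 and 0.0741).

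Maf (ENSMUSG00000055435, chr8:115682942-115707794, minus strand), a transcription factor of resident macrophages, stood at 39.5 and 34.5 CPM in wild-type high-density and 55.7 and 49.2 CPM in wild-type low-density libraries. The H2R-deficient libraries held 19.7 and 17.0 CPM of Maf at high and 41.6 and 46.3 CPM at low density. Low-density libraries were above high-density libraries in both genotypes. Maf had the firmest density call of the set, 2.39-fold higher at low density in H2R-deficient cells (1.26 ± 0.18, edgeR adjusted p = 0.000697), and the wild-type difference was 0.50 ± 0.18 (edgeR adjusted p = 0.0835). Its genotype difference was -1.01 ± 0.18 at high density (edgeR adjusted p = 0.0641) and -0.26 ± 0.17 at low density, the latter 0.00 with library totals alone. Maf shares 440 exon bases with the antisense gene Gm15655, and since the strand setting of the counting is not given, reads from these bases cannot be told apart.

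The macrophage colony-stimulating factor receptor, Csf1r (ENSMUSG00000024621, chr18:61105572-61132149, plus strand), had the highest levels of the set. It stood at 471 and 319 CPM in wild-type high-density, 230 and 204 in wild-type low-density, 342 and 189 in H2R-deficient high-density and 185 and 138 CPM in H2R-deficient low-density libraries. The high-density libraries of a genotype differed widely, and those of the genotypes overlapped. The Csf1r differences between densities were -0.86 ± 0.30 (wild type) and -0.72 ± 0.30 (H2R deficient) (edgeR adjusted p = 0.0845 and 0.0713), which with library totals alone became -0.28 and 0.19. Csf1r shares 871 exon bases with the antisense gene Hmgxb3.

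Adgre1 (ENSMUSG00000004730, chr17:57358686-57483529, plus strand), which encodes the macrophage surface protein F4/80, stood at 167 and 181 CPM in wild-type high-density, 113 and 122 in wild-type low-density, 147 and 117 in H2R-deficient high-density and 83.5 and 70.9 CPM in H2R-deficient low-density libraries. Its low-density libraries were below the high-density libraries of the same genotype. In H2R-deficient cells Adgre1 fell from high to low density (-0.78 ± 0.18, edgeR adjusted p = 0.00664) on the TMM scale, but with library totals alone the difference was 0.13 (edgeR adjusted p = 0.609), and leaving out high-density library 1 or low-density library 2 of that genotype ended the call (edgeR adjusted p = 0.0558 and 0.0578). In wild type Adgre1 differed by -0.57 ± 0.18 (edgeR adjusted p = 0.0666), or by 0.00 with library totals alone. For both Adgre1 and Csf1r the coordinates in the deposited tables differ from those of the GENCODE M21 annotation used for names.

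Levels per kilobase of exon, averaged over the 8 libraries, placed Csf1r (53.2) and Adgre1 (38.6 CPM per kb) first, followed by Apoe (14.6), C1qb (8.72), Mrc1 (5.48), Maf (4.60), C1qa (4.57), C1qc (2.17), Cd163 (0.655) and Mertk (0.271). Maf, C1qa and Mrc1 changed places between groups, with Maf at position 5 in both H2R-deficient groups and at position 7 in both wild-type groups. Maf lay above C1qa without overlap in both H2R-deficient groups, at 2.07 and 2.40 against 1.68 and 1.90 CPM per kb at high density. In both wild-type groups Maf and C1qa overlapped. The positions of the other 7 genes were equal in the 4 groups.

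Across the set, low density in wild-type cells gave no call. By edgeR 0 of 10 genes passed, where 12.7% of all tested genes did (1888 of 14909), and 4 of 10 (Cd163 and Maf higher, Adgre1 and Csf1r lower) had an unadjusted p under 0.05, where 33.4% of genes did. DESeq2 called 2 of the set lower (Adgre1 and Csf1r) and 2778 of all genes, and limma-voom 0 and 1563. With library totals alone 3 were called higher (C1qc, Cd163 and Maf), while over all genes the split of 1269 higher and 619 lower became 4822 and 124. The groups did not overlap for 7 of the 10 genes, against 62.1% of all genes. The median log2 fold change was 0.23 for the set and 0.10 for all genes. The values of C1qa, C1qb and Mrc1 depended on 1 library: without wild-type high-density library 2 they were -0.22, -0.11 and -0.05, and without library 4 they were 0.70, 0.65 and 0.61.

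In H2R-deficient cells 5 of 10 genes (C1qb, C1qc, Mrc1, Mertk and Maf) were called higher at low density, where 30.0% of all genes were, and Adgre1 was called lower, where 23.9% of all genes were. All 10 genes had groups that did not overlap, as did 81.1% of all genes, so separation of the groups was the common state in this comparison. The median log2 fold change was 1.05 for the set and 0.10 for all genes. With library totals alone 8 of the set were higher and 0 lower, and over all genes the split of 4478 higher and 3566 lower became 7690 and 387. The calls of C1qb, C1qc, Mrc1 and Maf held in all 16 alternative analyses of this comparison. Markers of other cells and of the cell cycle moved with density as well. In H2R-deficient cells 7 of 10 dendritic cell markers rose (summed level 14.6 and 19.1 CPM at high, 484 and 711 CPM at low density), as did 9 of 10 B cell markers (46.2 and 70.1, then 750 and 958 CPM), 6 of 8 NK cell markers (1.81 and 1.85, then 11.9 and 14.5 CPM) and 7 of 7 proliferation genes (104 and 106, then 294 and 216 CPM). Of the neutrophil list 10 of 13 genes fell. Of tested erythroid markers 5 of 5 fell (65.5 and 29.1, then 0.111 and 0.424 CPM, with 3 of the 6 listed at 0 in each low-density library). Mast cell markers had 4 of 7 lower (60.5 and 47.4, then 19.5 and 19.3 CPM), monocyte markers 4 higher and 3 lower of 11, eosinophil markers 1 higher and 2 lower of 6, T cell markers 1 higher and 1 lower of 10, and mesothelial or stromal markers 0 of 9. In wild type, where 0 of the 10 genes were called, 8.51% of all genes were called higher and 4.15% lower. Of the same lists, 5 of 10 dendritic cell, 8 of 10 B cell, 4 of 8 NK cell, 3 of 10 T cell and 5 of 7 proliferation markers rose. Of erythroid markers 5 of 5 fell, and of the neutrophil list 3 of 13. Monocyte markers had 1 higher and 2 lower of 11, eosinophil markers 1 higher and 3 lower of 6, mast cell markers 1 lower of 7 and mesothelial or stromal markers 0 of 9. Summed levels in wild type went from 13.5 and 39.5 to 466 and 221 CPM for dendritic cell markers and from 54.3 and 61.5 to 422 and 193 CPM for B cell markers. The part of these cells in the values of the macrophage genes was not tested.

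Between genotypes at high density, Apoe was the 1 of 10 genes called lower by edgeR, where 0.188% of all genes were (28 of 14909). An unadjusted p under 0.05 with a lower level was found for 8 of the 10 genes, against 10.7% of all genes, and the 2 without it were Adgre1 and Csf1r. The libraries did not overlap, with the H2R-deficient ones lower, for 9 of the 10 (all but Csf1r), against 25.8% of all genes. The median log2 fold change was -1.70 for the set and -0.05 for all genes. DESeq2 called 7 of the set lower (C1qa, C1qb, C1qc, Mrc1, Apoe, Cd163 and Maf) and 699 of all genes, and limma-voom 0 and 3. Library 2 of wild-type high density was lower than library 4 in the C1q chains, Mrc1, Cd163, Mertk and Adgre1, and higher in Apoe, Maf and Csf1r. Without library 2 edgeR called C1qa, C1qb and Mrc1 (-2.19, -2.15 and -2.13, edgeR adjusted p = 0.0388 for each), and without library 4 none of the set (C1qa -1.27, C1qb -1.39, Mrc1 -1.47).

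**Figure D3:**
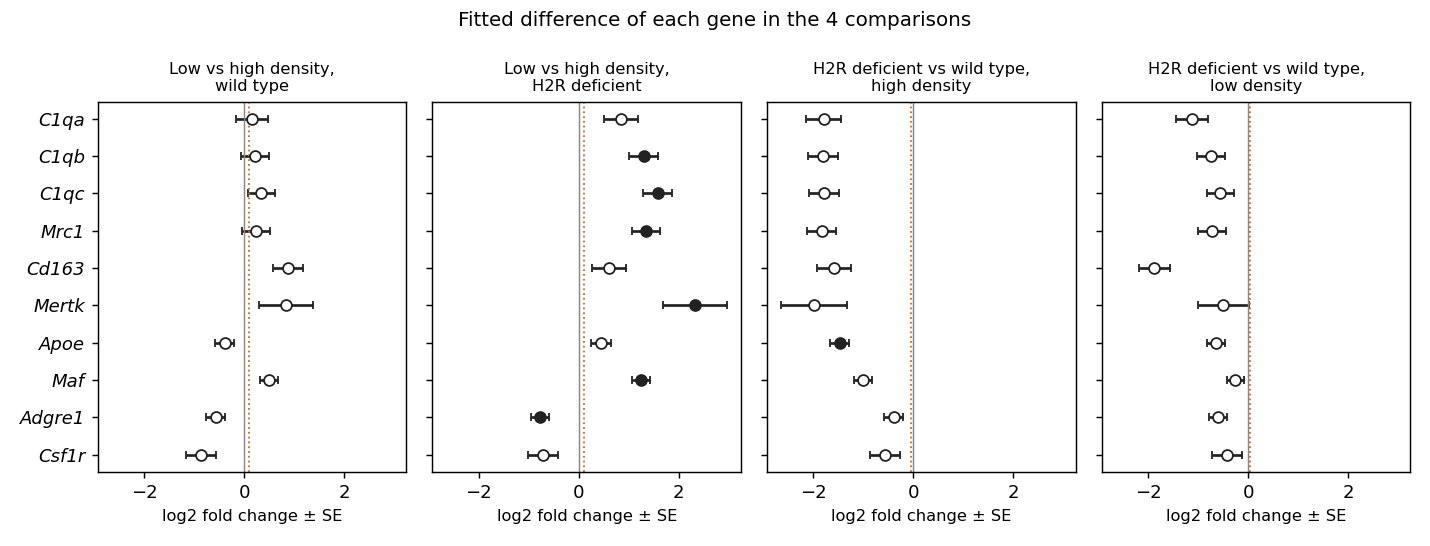
Log2 fold change ± SE of each gene in the 4 comparisons, from the edgeR model over all 8 libraries. Filled points passed an adjusted p of 0.05, and the dotted line marks the median of all tested genes; 8 genes lie between -1.99 and -1.01 in the genotype comparison at high density, and Adgre1 in the second panel is at 0.13 with library totals alone.

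At low density no gene of the set passed the test between genotypes. By edgeR 0 of 10 genes and 0% of all genes passed (3128 of all genes and 6 of the set had an unadjusted p under 0.05). Lower levels with an unadjusted p under 0.05 were found for C1qa, C1qb, Mrc1, Apoe, Adgre1 and Cd163, 6 of 10, against 10.3% of all genes. On the TMM scale all 10 genes had both H2R-deficient libraries below both wild-type libraries, a pattern that 26.6% of all genes had. Over library totals the genotypes overlapped at low density for Apoe, Csf1r, Mertk and Maf. DESeq2 called 3 lower (C1qa, Adgre1 and Cd163) and 915 of all genes, and limma-voom 0 and 8. The fitted differences ran from -1.88 (Cd163) to -0.26 (Maf), with a median of -0.62 for the set and 0.05 for all genes; with library totals alone the medians were -0.35 and 0.32.

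Whether the density effect differed between genotypes was tested directly, as the density effect in H2R-deficient minus that in wild-type cells. By edgeR 0 of 10 genes and 0% of all genes passed (3150 of all genes had an unadjusted p under 0.05), and DESeq2 and limma-voom also called 0 of the set, with 990 and 0 calls over all genes. A higher difference with an unadjusted p under 0.05 was found for 5 of the 10 genes (C1qb, C1qc, Mrc1, Apoe and Maf), against 12.6% of all genes. The largest of these were C1qc at 1.24 ± 0.40, Mrc1 at 1.11 ± 0.40 and C1qb at 1.08 ± 0.41 (edgeR adjusted p = 0.132, 0.162 and 0.177). Cd163 differed by -0.28 ± 0.46 and Adgre1 by -0.21 ± 0.26 (edgeR adjusted p = 0.76 and 0.679). 

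Over the 8 libraries the log2 levels of the C1q chains, Mrc1 and Cd163 were closely correlated, with Pearson's r between 0.857 (C1qc and Cd163) and 0.987 (C1qc and Mrc1). Adgre1 and Csf1r correlated with each other (0.887) and hardly with the C1q chains (-0.121 to 0.227). Maf correlated with C1qc at 0.930 and with Mertk at 0.929. These values are descriptions over 8 libraries that share groups and scaling. Among genes that averaged 5 CPM or more, those most like C1qb were Emp1 (0.986), Mrc1 (0.982) and Ednrb (0.980), and those most like C1qc were Emp1 (0.994), Sestd1 (0.989) and Mrc1. For Mrc1 they were C1qb, Emp1 (0.982) and Ms4a4a (0.979), and for C1qa they included Mrc1 (0.961) and C1qb (0.960). Apoe was most like Ctsa (0.955), Clec4a3 (0.946) and Gpr65 (0.933), and Maf most like Vcan (0.985), Slc12a4 (0.980) and Tom1l2 (0.979). Genes close to Cd163 included Vasn (0.929) and Srgap2 (0.910), and Mertk was closest to Fam49a (0.970), Arhgef10l (0.968) and Manba (0.956). Adgre1 was closest to Lair1 (0.993), Pla2g7 (0.989) and Sgms1 (0.975), and Csf1r to Bcl6 (0.969), Adam10 (0.965) and Gpr132 (0.958).

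Other macrophage markers were compared as a list of 27, of which 26 were tested. At high density 2 of the 26 were called lower in H2R-deficient libraries, with a median of -0.91. Among them was Fn1, which encodes fibronectin, at 652 and 698 CPM in wild-type and 111 and 182 CPM in H2R-deficient libraries (-2.20 ± 0.25, edgeR adjusted p = 0.0374). Only 4 of the 26 had a fold change above 0, whereas 10 of the 13 genes of the neutrophil list did. Of these 10, Ltf (1.92), Camp (1.56) and Ngp (1.40) stood apart from the others, which lay between 0.09 and 0.31. With low density in H2R-deficient cells the macrophage list split, with 9 of 26 higher, such as Cd81 (2.02), Fn1 (1.66) and Msr1 (1.31), and 8 lower, such as Selp (-1.67) and Cd68 (-0.98). In wild type Cd81, a tetraspanin, was the 1 of 26 called (1.17 ± 0.25, edgeR adjusted p = 0.0238). Among markers of resident peritoneal macrophages, Gata6 and Timd4 were scarce. Gata6 stood at 0 to 4.46 CPM and was not counted in wild-type high-density library 2, and Timd4 stood at 0.177 to 3.18 CPM. Both were picked after their values were seen, and the levels of other resident markers are not given here.

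**Figure D4:**
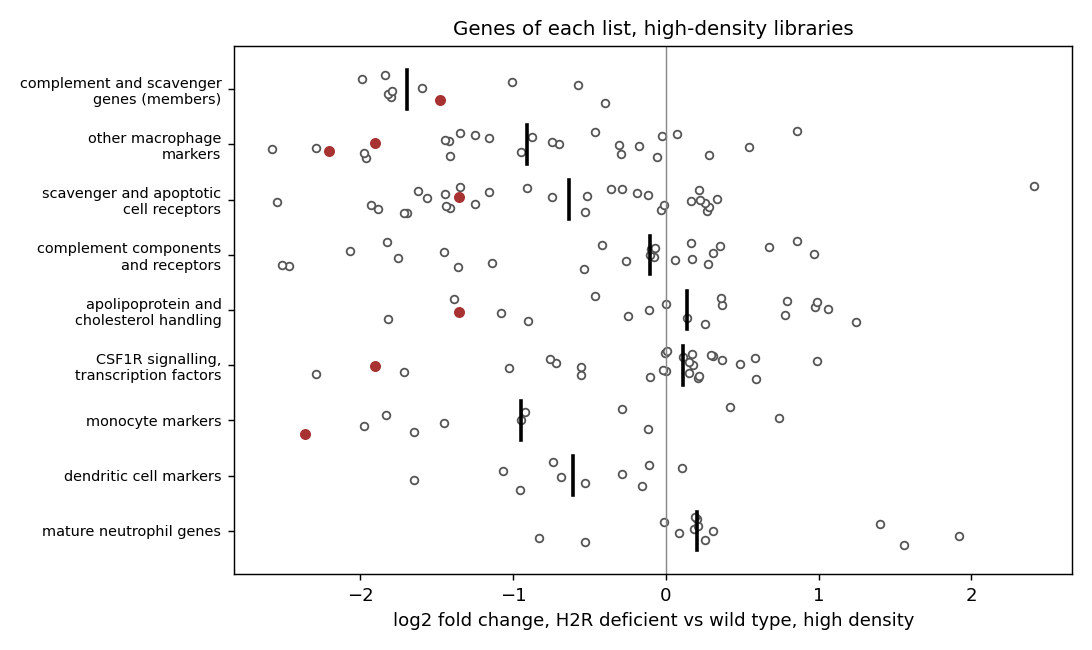
Log2 fold changes of H2R-deficient against wild-type libraries at high density for the genes of 9 lists (points; red, called by edgeR; bars, list medians). The medians are -1.70 for the 10 genes described, -0.91 for other macrophage markers, -0.64 for scavenger and apoptotic cell receptors and 0.20 for the neutrophil list (labelled mature neutrophil genes). The lists share some genes.

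Of 32 tested scavenger and apoptotic cell receptors, Lrp1, an endocytic receptor for apolipoprotein E among other ligands, was the 1 called lower at high density. It stood at 123 and 116 CPM in wild-type and 42.7 and 50.9 CPM in H2R-deficient libraries (-1.35 ± 0.18, edgeR adjusted p = 0.0374), and the list's median was -0.64. In H2R-deficient cells 10 of the 32 rose with low density and 8 fell. Cd163l1, a relative of Cd163 known from gamma-delta T cells, went from 2 and 2 counts to 504 and 478 (edgeR adjusted p = 0.000147), and Lrp1 (1.14), Msr1 (1.31), Cd68 (-0.98) and Cd300lf (-1.43) were also called. In wild type Cd163l1 (6 and 8 counts against 841 and 1195), Cxcl16 (1.09) and Clec7a (-1.56) were called.

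Few other pathway genes were called between genotypes at high density. Of 24 tested complement components and receptors 0 were called by edgeR in that comparison, with a median of -0.10. With low density in H2R-deficient cells 5 rose, among them C1qbp (2.87), which encodes a mitochondrial protein first named for binding C1q, and 10 fell, among them the C5a receptor C5ar1 (-1.63) and the integrin chains Itgax (-1.33) and Itgb2 (-1.20), which are part of complement receptors that neutrophils carry. C1qbp was the 1 called in wild type (1.46). Lrp1, which is also in the scavenger list, was the 1 of 19 apolipoprotein and cholesterol genes called lower at high density (list median 0.14). In H2R-deficient cells 4 of the 19 rose and 8 fell from high to low density (Fabp4 2.41, Pltp 1.52, Lrp1 1.14, Soat1 -0.87), and 0 of 19 were called in wild type. The 27 genes of CSF1 receptor signalling and macrophage transcription factors had a median of 0.11 at high density. With low density in H2R-deficient cells 5 of the 27 rose and 15 fell, those of lowest adjusted p being Irf8 (2.97), Tyrobp (-1.39), Cebpb (-1.55) and Tfe3 (-1.25), and in wild type 1 rose (Il34, at 0 counts in every high-density library and at 13 to 23 in low-density libraries) and 6 fell (Tyrobp -0.86, Zeb2 -0.76 and Mafk -1.28 among them). In the genotype comparison at low density and in the difference of density effects edgeR called 0 genes of every list.

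Some markers of other cells had lower values in H2R-deficient than in wild-type high-density libraries. Of 11 monocyte markers 1 was called lower (Ace, -2.36 ± 0.29, edgeR adjusted p = 0.0374) and 2 had a fold change above 0; their summed level was 3410 and 2565 CPM in wild-type and 2560 and 2176 CPM in H2R-deficient libraries. Of 6 tested eosinophil markers 1 was called lower (Siglecf, -1.41 ± 0.21, edgeR adjusted p = 0.0458) and 0 were above 0, with sums of 99.9 and 117 against 34.2 and 39.7 CPM; the untested Epx was at 0 in every library but wild-type high-density library 4. Of 5 tested erythroid markers 0 were called and 0 were above 0, with a median of -1.61 and sums of 62.8 and 226 against 65.5 and 29.1 CPM. Of 9 mesothelial or stromal markers 0 were called and 0 were above 0, with sums of 24.3 and 109 against 27.7 and 20.0 CPM. Dendritic cell markers had 0 of 10 called and 1 above 0, with sums of 13.5 and 39.5 against 14.6 and 19.1 CPM. Mast cell and T cell markers were above 0 in 7 of 7 and 10 of 10 without a call. The summed level of the 27 other macrophage markers, most of it from Cd14, was 18092 and 18586 against 15111 and 18032 CPM. The part of these cells in the lower levels of the C1q genes, Mrc1 and Apoe was not tested.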

How the data were processed

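Per the file headers, the deposited tables hold raw, unscaled read counts for each gene. The submitters' processing notes name the build GRCm38, STAR 2.5.2b, Subread 1.5.2 with featureCounts, Trimmomatic 0.36 and bcl2fastq 2.17.1.14. Their settings, the strand and the annotation release were not given in the sources used here. Symbols came from GENCODE M21 by identifier (48970 of 49315 matched). Replicate libraries differed by more than sampling noise (chi-square per degree of freedom 33.7 to 53.5) and all were kept. A floor of 3 counts corresponds to 0.124 to 0.151 CPM over library totals and covers counting error only.

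Genes were filtered with filterByExpr by group and scaled by TMM, and edgeR 4.0.16 (R 4.3.3) fitted a robust quasi-likelihood model with a mean for each group over all 8 libraries, leaving 4 residual degrees of freedom. An adjusted p (Benjamini-Hochberg over 14909 genes) under 0.05 was called. Standard errors were derived from the edgeR test, as the absolute log2 fold change over the square root of its F statistic. No exact test of 1 gene can reach 0.05 in groups of 2. The code was tested on simulated data. Alternatives were library totals, DESeq2 size factors, no filter and a stricter filter (1 CPM in 4 libraries), DESeq2 1.42.0, limma-voom (limma 3.58.1), a replicate block, fits of the compared groups alone, and each library left out.

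The 10 genes, the 5 pathway lists and the 11 marker lists were chosen with earlier results of these data known. The lists share genes, so their counts and medians are not independent of each other. Examples are Lrp1 (scavenger and cholesterol lists), Msr1 and Cd68 (macrophage and scavenger lists), and Fcgr1 and Cx3cr1 (macrophage and monocyte lists). Named besides the 10 are up to 4 called genes of lowest adjusted p per pathway list and comparison (in part given by count only), and the 3 genes most like each of the 10, by Pearson's r of log2 CPM (prior count 2). Hrh2, S100a9, Gata6, Timd4, Epx, Cd14, Ace, Siglecf, Msr1, Ltf, Camp and Ngp were named after looking at their values. Results for 1 gene that this rule gives are not reported here.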

Additional observations from a re-analysis of the deposited data

How the results depend on the processing

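The calls of C1qb, C1qc, Mrc1 and Maf with density in H2R-deficient cells kept their direction and passed in all 16 alternatives; Mertk passed in 14 and Adgre1 in 13, and with library totals alone Adgre1 reversed to 0.13. Counts are given as genes of the set and then over all genes. Between densities in wild type (0 and 1888 in the analysis reported), 3 and 4946 were called with library totals alone, 1 and 2058 with DESeq2 size factors in edgeR, 1 and 3361 without a filter, 2 and 2778 by DESeq2, and 0 and 608 with the compared groups alone. Between genotypes at high density (1 and 31), 4 and 73 were called with library totals alone, 8 and 1095 without a filter, 4 and 58 with the stricter filter, 7 and 699 by DESeq2, 0 and 3 by limma-voom, and 0 and 0 with the compared groups alone. Between genotypes at low density (0 and 0), 3 and 1360 were called without a filter, 3 and 915 by DESeq2, and 0 and 8 by limma-voom. For the difference of density effects (0 and 0), 0 and 635 were called with library totals alone, 1 and 1210 without a filter, and 0 and 990 by DESeq2. Leaving out 1 library gave 123 to 1724 calls over all genes in the wild-type density comparison, 0 to 3 of the set and 0 to 40 of all genes between genotypes at high density, 0 to 121 of all genes at low density, and 0 to 3 of all genes for the difference; in the H2R-deficient density comparison it gave 5 to 7 of the set and 5394 to 8341 of all genes. A group left with 1 library is assumed to vary like the other groups. Where the counts changed, the cause was not tested.

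The replicate block, with the library number within a genotype as a term, called 1 of the set (Csf1r) and 2621 of all genes between wild-type densities, 7 and 8450 between H2R-deficient densities, and 0 and 28 for the difference of density effects. Same-numbered libraries deviated together at r = 0.155 (wild type) and 0.326 (H2R deficient), but the labels do not say that a number pairs them. No paired analysis was made between genotypes, because a library number does not link mice of different genotype. The counts behind a value were 21 to 367 for the C1q chains and Cd163 and 1 to 54 for Mertk, and each group had 2 libraries.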
